A study of Mus musculus with 12 samples.

Results

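The cytochrome P450 genes of mouse skin were taken by symbol: every gene whose symbol is Cyp followed by a number, a letter or letters and a number, which gave 92 of the 23235 symbols measured. Pseudogenes ending in -ps were left out, as were Cyp51 and other Cyp symbols of another form. Gene expression had been measured by polyA RNA sequencing in 12 libraries of FVB/NJ mice, an inbred albino strain, with 3 libraries in each of 4 groups. Papillomas (skin tumours at a pre-malignant stage) had been induced with 1 dose of 400 nmol of the carcinogen DMBA and repeated doses of 10 nmol of the tumour promoter TPA on mice shaved at 6 to 7 weeks of age. They were then treated for 6 weeks with 20% camphor white oil (CWO), an essential oil of the camphor tree, or with its acetone vehicle. Each papilloma library pooled 4 whole tumours of 1 mouse, from 3 mice per treatment. Epidermis came from shaved mice, with no carcinogen named in their labels, 24 h after 400 µL of 20% CWO or of acetone, and was lifted off with ammonium thiocyanate. The epidermis libraries were those with the best RNA integrity, and the labels do not give the age of these mice.

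P450 enzymes are haem proteins that insert an oxygen atom into a substrate, taking electrons from cytochrome P450 oxidoreductase (Por) in the endoplasmic reticulum or from ferredoxins in mitochondria. Members of the Cyp1, Cyp2 and Cyp3 families mostly oxidise foreign chemicals, including carcinogens such as DMBA, and their transcription in liver answers to receptors of those chemicals. Members of the Cyp4 family and some of Cyp2 oxidise fatty acids, and others build or break down cholesterol, bile acids, steroid hormones, retinoic acid and vitamin D. In skin, P450 enzymes are known for making barrier lipids, for clearing retinoic acid and for activating topical carcinogens.

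The files gave FPKM, fragments of a gene scaled by transcript length and by the mapped fragments of the library, so levels can be set side by side between genes. Depth was 11.1 to 24.6 M fragments per library, and 3 fragments of a P450 gene were worth a median of 0.0989 FPKM. Keratinocyte markers (6 of 6 listed) summed to 26799 to 36009 FPKM in papillomas and 24761 to 31489 FPKM in epidermis. Within these sums the markers moved in opposite directions. With both treatments the means of Krt14, Krt1 and Krt5 were higher in papillomas, and those of Krt10, Lor and Krt15 lower. With vehicle, Krt14 averaged 15781 FPKM in papillomas and 2882 FPKM in epidermis, and Lor 1745 and 7442 FPKM. The sums therefore do not show that the keratinocytes of both tissues were alike. Transcripts of 8 skeletal muscle markers summed to 3.50 to 307 FPKM in papillomas, 2453 to 3142 FPKM in epidermis given CWO, and 9124, 14812 and 2977 FPKM in epidermis given vehicle. Vehicle epidermis libraries 1 and 2 therefore stand apart. Counts of called P450 genes and of listed partner and marker genes are also given without them, from fits whose 1 vehicle library is assumed to vary like the other group. The labels do not state that each epidermis library came from a mouse of its own, so p-values there measure only the spread between these samples, which may be technical.

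Of the 92 P450 genes, 34 were expressed, meaning at least 1 FPKM in at least 3 of the 12 libraries. Another 35 gave only traces, and 23 were listed at 0 in every library. The expressed share was 37.0% of P450 genes and 57.1% of all symbols. The Cyp2 family held 15 of the 34 expressed genes out of its 49 members, the Cyp4 family 7 of 15, the Cyp3 family 2 of 7 and the Cyp1 family 2 of 3. No gene of the 14-member Cyp2c cluster on chromosome 19 was expressed, a cluster best known from liver. Cyp7a1, which starts bile acid synthesis in liver, and Cyp19a1, the aromatase that makes oestrogens, were listed at 0 throughout. Just inside the threshold lay Cyp2d22 and Cyp8b1, with a third-highest library at 1.10 and 1.21 FPKM. Just outside lay Cyp27b1, an enzyme that activates vitamin D, and Cyp46a1, a brain cholesterol hydroxylase, at 0.739 and 0.404 FPKM.

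**Figure D1:**
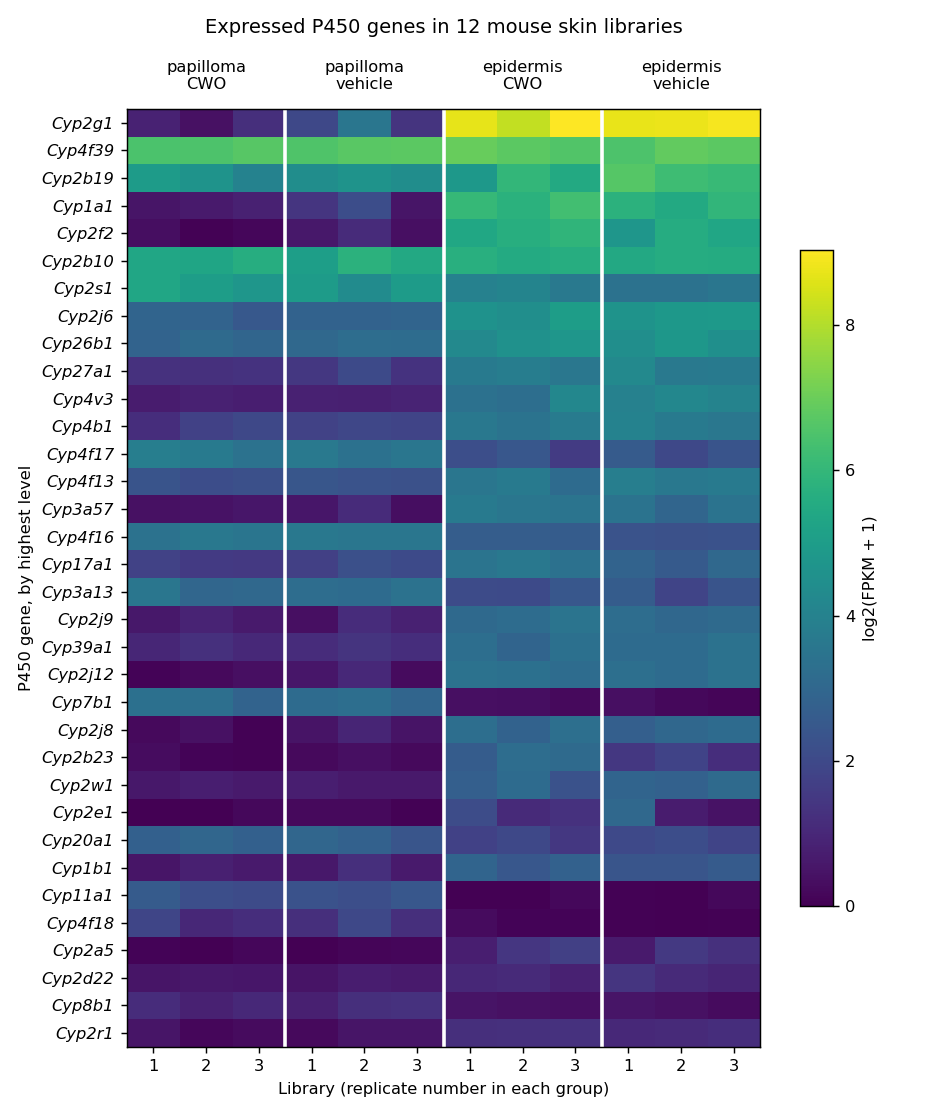
Levels of the 34 expressed P450 genes as log2(FPKM + 1), with genes in rows and libraries in columns, in 4 groups of 3. Cyp2g1, Cyp1a1 and Cyp2f2 are bright only in the 6 epidermis columns, Cyp4f39 and Cyp2b10 are bright in all 12, and Cyp7b1 and Cyp11a1 are visible only in the 6 papilloma columns.

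Summed over all 92 genes, P450 transcripts came to 274 ± 9.97 FPKM in papillomas given CWO and 287 ± 21.5 FPKM in papillomas given vehicle, against 932 ± 124 FPKM in epidermis given CWO and 969.5 ± 30.3 FPKM in epidermis given vehicle (SD, n = 3 each). No papilloma library came near the lowest epidermis library, at 309 FPKM for the highest papilloma library and 815 FPKM for the lowest of epidermis. Much of the sum was 1 gene: Cyp2g1 held 36.2% to 49.5% of it in each epidermis library. Without Cyp2g1 the sums were 274 ± 9.97 and 282 ± 17.9 FPKM in papillomas given CWO and vehicle, against 520.3 ± 15.7 and 519.8 ± 2.42 FPKM in epidermis given CWO and vehicle. In papillomas Cyp4f39 led instead, with 30.5% to 38.3% of the sum. In bulk libraries such as these, fewer cells of a type and less RNA per cell cannot be told apart.

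**Figure D2:**
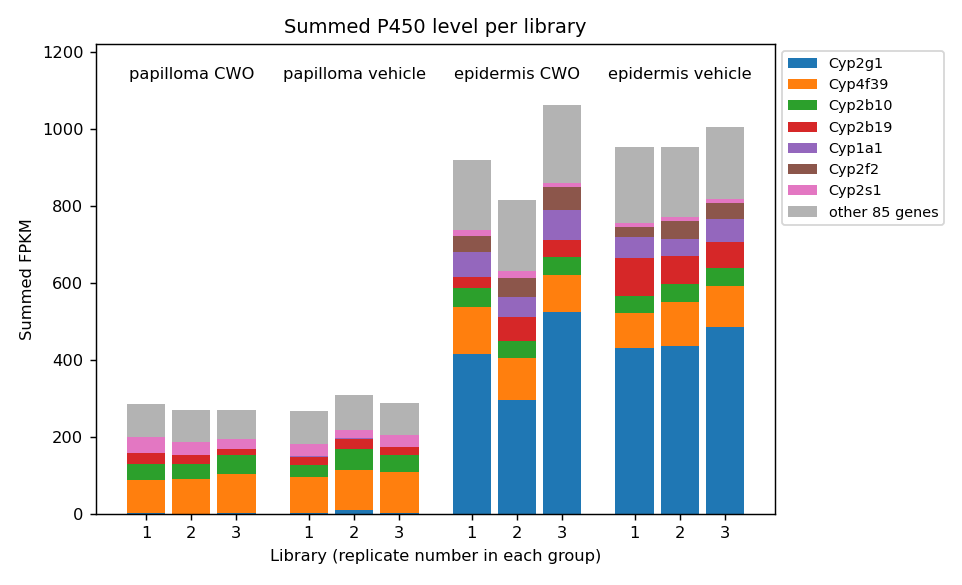
Summed FPKM of all 92 P450 genes in each library, as stacked bars with 7 named genes in colour and the other 85 in grey. The papilloma bars reach 266 to 309 FPKM and the epidermis bars 815 to 1061 FPKM, with Cyp2g1 the largest segment of each epidermis bar.

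Cyp2b23, the gene called with CWO in epidermis, lies in a cluster of 13 Cyp2 genes on chromosome 7 (mm9, chr7:26587495-27943583), of which 7 were expressed: Cyp2s1, Cyp2b10, Cyp2b23, Cyp2b19, Cyp2g1, Cyp2a5 and Cyp2f2. The 250 bases before the transcription start are shown for Cyp2b23, Cyp2b19 and Cyp2b10, close relatives with different levels across the groups, and for Cyp1a1, the standard target of the aryl hydrocarbon receptor. They are RefSeq sequences of GRCm38.p6, read along the gene: Cyp2b23 at chr7:26686431-26686680 on the minus strand, and, on the plus strand, Cyp2b19 at chr7:26756892-26757141, Cyp2b10 at chr7:25897408-25897657 and Cyp1a1 at chr9:57697363-57697612. Capitals mark matches, on either strand, to AGGTCA, a nuclear receptor half-site, GCGTG, the core bound by the aryl hydrocarbon receptor with Arnt, TATAAA, and TGANTCA, the AP-1 motif.
Cyp2b23: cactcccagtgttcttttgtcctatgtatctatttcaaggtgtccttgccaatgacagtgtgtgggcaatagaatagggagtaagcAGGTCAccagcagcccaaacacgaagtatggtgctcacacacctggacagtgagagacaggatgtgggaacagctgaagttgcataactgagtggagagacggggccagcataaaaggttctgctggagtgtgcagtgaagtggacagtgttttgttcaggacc
Cyp2b19: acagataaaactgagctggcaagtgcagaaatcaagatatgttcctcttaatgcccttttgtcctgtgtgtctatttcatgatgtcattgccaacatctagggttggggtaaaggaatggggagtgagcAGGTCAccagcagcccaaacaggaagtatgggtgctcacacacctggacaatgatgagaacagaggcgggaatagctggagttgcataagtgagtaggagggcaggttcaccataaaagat
Cyp2b10: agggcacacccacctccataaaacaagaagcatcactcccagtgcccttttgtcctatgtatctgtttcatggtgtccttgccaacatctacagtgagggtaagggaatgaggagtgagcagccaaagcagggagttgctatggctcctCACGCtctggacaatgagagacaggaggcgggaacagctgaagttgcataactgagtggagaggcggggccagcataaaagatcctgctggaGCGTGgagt
Cyp1a1: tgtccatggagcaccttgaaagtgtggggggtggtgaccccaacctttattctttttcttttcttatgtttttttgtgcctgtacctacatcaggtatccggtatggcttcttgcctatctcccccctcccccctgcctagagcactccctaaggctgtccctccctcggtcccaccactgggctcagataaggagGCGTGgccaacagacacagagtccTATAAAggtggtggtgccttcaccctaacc
AGGTCA began 164 bases before the start in Cyp2b23 and 121 bases before it in Cyp2b19, and the Cyp2b10 window did not hold it. The bases directly around the match were the same in Cyp2b23 and Cyp2b19, and each distance depends on the annotated start. The Cyp2b10 window held GCGTG 9 bases before the start and its reverse complement CACGC at 101 bases. Cyp1a1 held GCGTG at 54 bases and TATAAA at 30 bases before the start, and TGANTCA matched in none of the 4 windows. Among all 32851 RefSeq windows of this length, 14.0% held AGGTCA, 28.2% GCGTG, 12.4% TATAAA and 6.75% TGANTCA. Of the 28 expressed P450 genes with a window, 5 held AGGTCA, 10 GCGTG, 5 TATAAA and 3 TGANTCA. Aligned in pairs, the Cyp2b windows were identical at 58.6% of columns for Cyp2b23 with Cyp2b19, 62.9% for Cyp2b23 with Cyp2b10 and 67.6% for Cyp2b19 with Cyp2b10. Columns with a gap, also at the ends, count as not identical, and Cyp2b23 with Cyp2b19 took 297 columns for 250 bases. The Cyp1a1 window matched the 3 Cyp2b windows at 46.5% to 51.2%. Shared sequence was counted in words of 50 bases, since the read length is not given here. By this count 4.44% of the 50-base words of Cyp2b23, 2.45% of those of Cyp2b19 and 9.33% of those of Cyp2b10 also occur in another gene's transcript.

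In epidermis, 24 h after CWO, 1 P450 gene was higher past the threshold of an adjusted p of 0.05, Cyp2b23. Cyp2b23 had 5.25, 8.37 and 7.68 FPKM with CWO against 1.76, 2.48 and 1.29 with vehicle. The 3 CWO libraries all lay above the 3 vehicle libraries, and the means were 7.10 ± 1.64 FPKM with CWO and 1.84 ± 0.603 FPKM with vehicle (SD, n = 3 each), a ratio of 3.85. The values rested on 184 to 300.0 fragments with CWO and 48 to 61 with vehicle. The log2 change was 1.51 with an SE of 0.211 and a limma adjusted p of 0.0132 on the log2(FPKM + 1) scale, where the change of a low gene comes out too small. The authors' deposited table for epidermis gives Cyp2b23 mean normalised counts of 237 with CWO and 61.6 with vehicle. Its log2 change there is 1.94, with a DESeq adjusted p of 1.20e-06, and no other of the 92 genes is listed. That table holds only 176 rows, with DESeq adjusted p up to 0.00544. A gene missing from it may therefore still lie under 0.05. The call did not hold in every setting: the adjusted p was 0.0515 without CWO library 2, 0.0577 without vehicle library 1, 0.0755 with no filter on low values and 0.0902 without vehicle libraries 1 and 2. The log2 change was 1.36 to 1.69 over the 6 fits that each left out 1 library.

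Of the 92 genes, 30 passed the filter in epidermis, and 1 of 30 was called, in the higher direction, where 2.00% of all 12287 genes tested were called and 1.82% called higher. The median log2 change of the 30 was 0.04, against 0.02 for all genes. Libraries did not overlap between treatments for 7 of the 30, higher with CWO in 6, where 18.7% of all genes did not overlap. The other 29 had log2 changes from -0.89 to 0.67 and none passed the test. Without vehicle libraries 1 and 2, 0 of the 30 were called.

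Cyp17a1, the steroid hydroxylase and lyase on the way to androgens, had 10.0, 11.3 and 9.40 FPKM with CWO against 6.30, 4.89 and 7.22 with vehicle. All CWO libraries were above all vehicle libraries, but the log2 change of 0.67 (SE 0.155) had an adjusted p of 0.0783 in limma. Without vehicle library 3 that adjusted p was 0.0289, and in a fit of all 12 libraries it was 0.0314. Cyp2b19, a keratinocyte enzyme that makes epoxides of arachidonic acid, lay on the other side. It had 27.3, 61.9 and 44.1 FPKM with CWO against 99.9, 73.3 and 66.8 with vehicle. The highest CWO library was just under the lowest vehicle library, and the log2 change of -0.89 (SE 0.276) did not pass, with an adjusted p of 0.179.

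Cyp2s1, an extrahepatic P450 of epithelia, and Cyp4f16, of the fatty acid hydroxylases, were also above vehicle in every CWO library without passing. Cyp2s1 had 14.5, 16.0 and 11.5 FPKM with CWO against 9.72, 9.56 and 10.7 with vehicle, a log2 change of 0.44 and an adjusted p of 0.196. Cyp4f16 had 5.38, 5.29 and 5.22 FPKM with CWO against 3.99, 3.71 and 3.89 with vehicle, a log2 change of 0.37 and an adjusted p of 0.191. In the fit of all 12 libraries the adjusted p of Cyp4f16 was 0.0339. Cyp4v3, a fatty acid hydroxylase, had 9.32, 8.54 and 17.0 FPKM with CWO against 14.5, 17.2 and 15.5 with vehicle. CWO library 3 lay within the vehicle range and the groups overlapped, with a log2 change of -0.47 and an adjusted p of 0.408, which was 0.033 without CWO library 3.

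The genes that answer to the xenobiotic receptors did not pass. Cyp1a1, which oxidises polycyclic aromatic hydrocarbons, had 66.1, 53.5 and 77.2 FPKM with CWO against 54.5, 43.7 and 61.5 with vehicle, and the groups overlapped. Its log2 change was 0.30 (SE 0.169, limma adjusted p 0.495). Cyp1b1, known for activating DMBA, had a log2 change of 0.27 (adjusted p 0.504), also with overlap. Cyp2b10, the liver gene induced by phenobarbital through the receptor Nr1i3, had 51.5, 44.8 and 48.2 FPKM with CWO against 43.3, 46.8 and 45.7 with vehicle. Both groups overlapped, at a log2 change of 0.09 with an SE of 0.101 and an adjusted p of 0.789. Nr1i3 itself was listed at 0 in 11 of the 12 libraries, and Nr1i2, the pregnane X receptor, in all 12. The aryl hydrocarbon receptor Ahr averaged 19.9 ± 3.85 FPKM with CWO and 18.8 ± 3.23 FPKM with vehicle (adjusted p 0.916).

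Some sebaceous gland and fibroblast markers were called with the treatment in epidermis, beside Cyp2b23. No tested marker of the other listed cell types was called, though all 8 skeletal muscle markers were lower at an unadjusted limma p under 0.05. Of all genes, 14.7% were under that p in either direction. The median log2 change of the 8 muscle markers was -1.42. Without vehicle libraries 1 and 2 their changes ran from -0.33 (Myl1) to 0.07 (Tnnc2), so the muscle difference rested on those 2 libraries. Of 10 sebaceous gland markers, 1 rose (Elovl3, a fatty acid elongase, at 164 ± 42.5 FPKM with CWO and 46.3 ± 8.40 FPKM with vehicle) and 1 fell (Scd3, a fatty acid desaturase, at 32.5 ± 11.7 FPKM with CWO and 123 ± 12.3 FPKM with vehicle). The 2 of 10 sebaceous calls stand beside 2.00% of all genes called. The sebaceous sum was 3024 to 3469 FPKM with CWO and 2430 to 2725 FPKM with vehicle. Fibroblast markers summed to 11.8 to 23.4 FPKM with CWO and 28.2 to 68.7 FPKM with vehicle, with 2 of 5 tested called lower, where 0.179% of all genes were. Without vehicle libraries 1 and 2, 0 sebaceous and 0 fibroblast markers were called, and 12 of all genes were. The part of sebaceous, fibroblast and muscle transcripts in the P450 values was not tested.

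**Figure D3:**
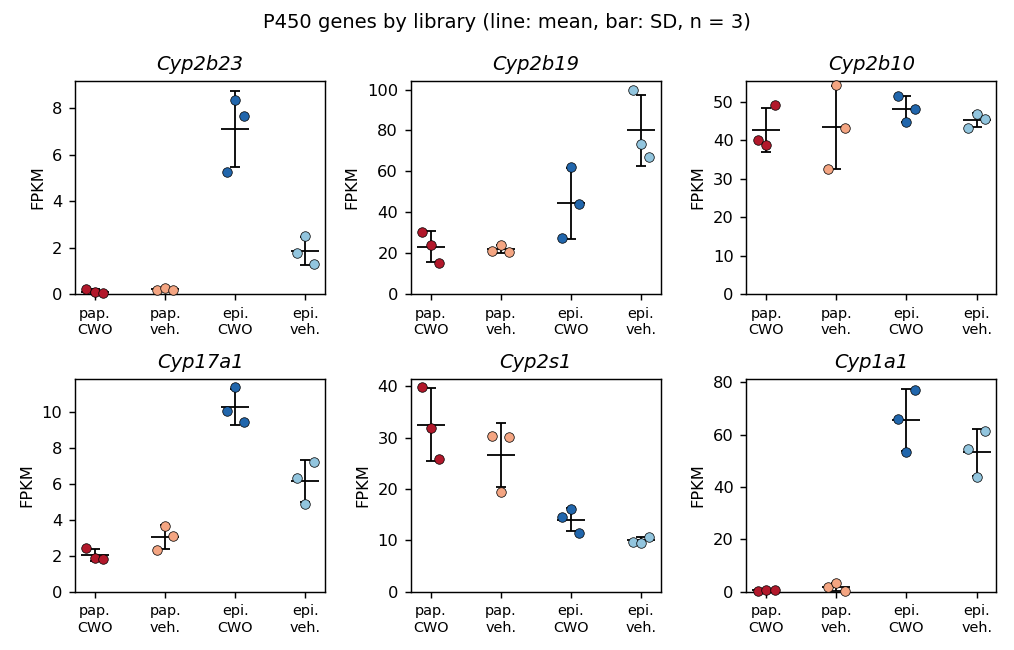
FPKM of 6 P450 genes in each library, by group (pap., papilloma; epi., epidermis; veh., vehicle), with points for libraries, a line for the mean and bars for the SD of 3. Cyp2b23 lies between 5.25 and 8.37 FPKM in the 3 CWO-treated epidermis libraries and at or under 2.48 in all others, and Cyp2b10 spans 32.6 to 54.4 FPKM with all 4 groups overlapping.

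In papillomas, no P450 gene was called after 6 weeks of CWO. Of the 92 genes, 20 passed the filter, and the 0 calls in limma stand against 0% of all 12142 genes tested. At an unadjusted p under 0.05 there were 2 P450 genes, both lower with CWO, and 306 of all genes, and limma-voom on recovered fragments also called 0 P450 genes. The median log2 change of the 20 was -0.10, against -0.01 for all genes. Cyp2g1 was 1 of the 2. It had 0.817, 0.325 and 1.30 FPKM with CWO against 2.89, 10.6 and 1.56 with vehicle, so that every CWO library lay below every vehicle library, the only such gene of the 20 where 6.58% of all genes did not overlap. Its log2 change was -1.46 with an SE of 0.510 and an adjusted p of 1.00, and -0.83 without vehicle library 2. Cyp17a1, the other, had 2.41, 1.89 and 1.81 FPKM with CWO against 2.31, 3.66 and 3.11 with vehicle, with overlap, a log2 change of -0.40 and an adjusted p of 1.00. The remaining 18 had log2 changes from -0.30 in Cyp27a1 to 0.28 in Cyp2s1. The authors' deposited table for papilloma gives a p for 65 of the 92 genes, 2 of them under 0.05, and its lowest adjusted p among them is 1.

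The CWO change in papillomas minus the CWO change in epidermis was tested across 13184 genes in 1 fit of all 12 libraries. Cyp2b23 was the 1 call among 34 P450 genes, where 0.766% of all genes were called, 0.0303% with a positive and 0.736% with a negative difference. In papillomas it was near the detection limit, at 0.219, 0.0677 and 0.0293 FPKM with CWO against 0.165, 0.281 and 0.183 with vehicle, on 1 to 9 fragments per library with CWO and 5 to 10.1 with vehicle. The difference between the CWO changes was -1.64 on the log2 scale (SE 0.251, limma adjusted p 0.0121). Cyp2b23 passed the filter through epidermis only, and at papilloma levels this near 0 the log2(FPKM + 1) scale holds any change near 0, so the value largely restates the change in epidermis and does not show how the gene responds in papillomas. By limma-voom on recovered fragments the adjusted p was 0.175 and with a replicate block 0.0536, it ranged from 0.00881 to 0.0413 when 1 library at a time was left out, and it was 0.0364 without epidermis vehicle libraries 1 and 2. For Cyp17a1 the difference was -1.07 (SE 0.223) and its adjusted p of 0.0538 missed the threshold. That adjusted p was 0.0199 without epidermis vehicle library 3, 0.0434 without epidermis CWO library 3 and 0.0441 without papilloma vehicle library 1.

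Papillomas and epidermis differed for most of the P450 genes tested, as they did for most genes. Treatment history, time, the inclusion of the whole tumour and the isolation of epidermis differ with tissue and cannot be told apart from it. Between CWO-treated tissues 28 of 30 P450 genes were called, 7 higher and 21 lower in papilloma, where 68.8% of all 12689 genes were called, 29.1% higher and 39.7% lower. Between vehicle-treated tissues 28 of 30 were called, 8 higher and 20 lower, where 70.2% of all 12788 genes were called, 31.8% higher and 38.3% lower. A gene that passed the filter through 1 tissue only had to differ: with CWO, 12 reached 1 FPKM in epidermis alone and 2 in papilloma alone, and with vehicle 5 and 3. With CWO the 12 were Cyp1a1, Cyp1b1, Cyp2b23, Cyp2e1, Cyp2f2, Cyp2j8, Cyp2j9, Cyp2j12, Cyp2r1, Cyp2w1, Cyp3a57 and Cyp4v3. With vehicle the 5 were Cyp2b23, Cyp2j8, Cyp2r1, Cyp2w1 and Cyp4v3. In papilloma alone they were Cyp7b1 and Cyp11a1 with both treatments, and Cyp4f18 with vehicle. Others reached 1 FPKM in all 3 epidermis libraries but not in every papilloma library, so epidermis alone carried them past the filter too. They were Cyp2g1 and Cyp39a1 with CWO, and Cyp1a1, Cyp1b1, Cyp2f2, Cyp2j9, Cyp2j12 and Cyp3a57 with vehicle. The p-values of all these genes below are no separate support for a difference. Among P450 genes at 1 FPKM or more in all 6 libraries, 5 were called higher and 7 lower of 14 with CWO, and 5 higher and 9 lower of 16 with vehicle. The share called among all genes at that level was not counted, so whether these counts exceed it stays unknown. The tissues did not overlap for 27 of the 30 genes with CWO, where 74% of all genes did not, and for 28 of the 30 with vehicle, where 74.5% did not. The exceptions were Cyp2b10 and Cyp4f39 with both treatments and Cyp2b19 with CWO. The comparisons with CWO and with vehicle share no library, and 27 genes were called in both, all in the same direction, 7 higher and 20 lower, of 29 tested in both. The share of all genes called in both was not counted, so this count has no background beside it. It also includes genes that passed the filter through 1 tissue only. The median log2 change of the P450 genes tested was -1.92 with CWO and -1.53 with vehicle, against -0.12 and -0.07 for all genes. Median-ratio scaling moved the median of all genes to 0.01 in both. The P450 medians after scaling were not computed. Leaving out vehicle epidermis libraries 1 and 2 left the same 28 genes called with vehicle. Changes below are log2 differences, papilloma minus epidermis, on the log2(FPKM + 1) scale, with limma adjusted p.

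**Figure D4:**
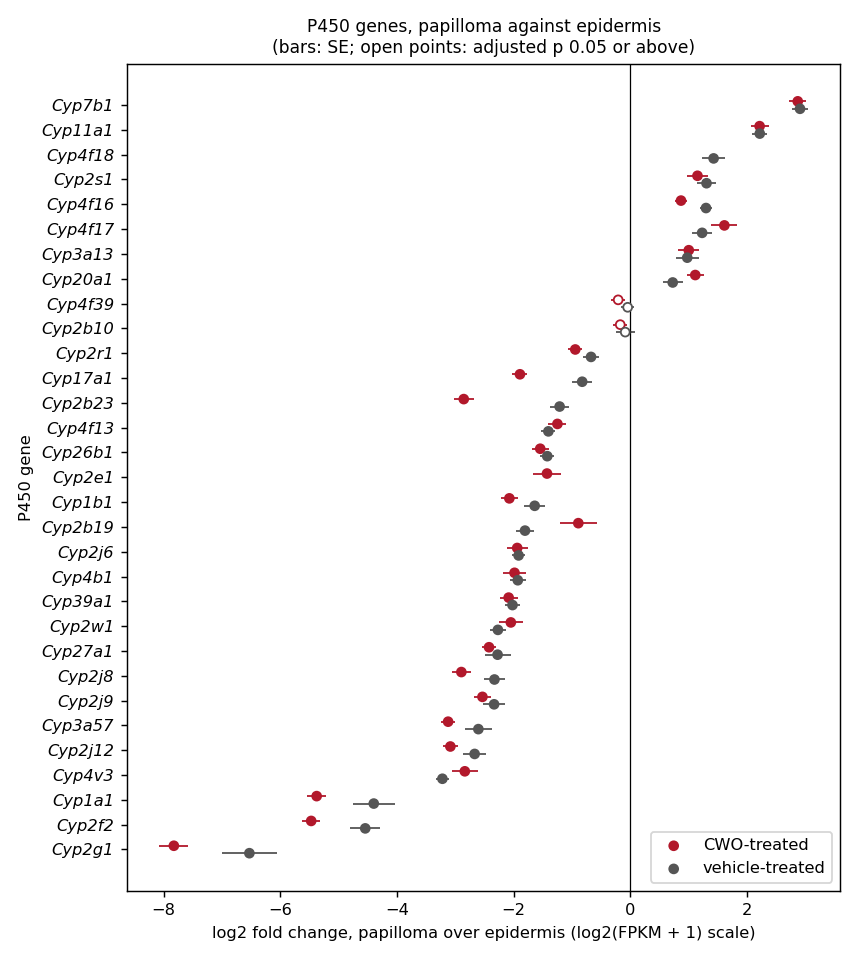
Log2 change between papilloma and epidermis of each P450 gene tested, in CWO-treated (red) and vehicle-treated (grey) tissue, with bars for the SE and open points for an adjusted p of 0.05 or above. Most points lie left of 0, down to -7.83 for Cyp2g1, 8 genes lie to the right, up to 2.91 for Cyp7b1, and the open points of Cyp4f39 and Cyp2b10 lie near 0.

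Among the enzymes of foreign chemicals, the 3 deepest falls were Cyp2g1, Cyp2f2 and Cyp1a1. Cyp2g1, known in rats and rabbits as an enzyme of the olfactory lining (chr7:27593946-27606216, mm9), had 0.817, 0.325 and 1.30 FPKM in papillomas given CWO and 2.89, 10.6 and 1.56 in papillomas given vehicle, against 414, 295 and 525 in epidermis given CWO and 429.7, 435 and 485 in epidermis given vehicle. It was the highest P450 transcript in all 6 epidermis libraries, and the highest papilloma library, vehicle 2, stayed far below the lowest of them. It fell by 7.83 with CWO (adjusted p 1.63e-07) and fell by 6.53 with vehicle (adjusted p 7.21e-06), a vehicle change of -7.16 without papilloma vehicle library 2. Cyp2f2, which activates naphthalene in mouse lung (chr7:27904974-27918679), had 0.268, 0.0368 and 0.108 FPKM in papillomas given CWO and 0.484, 1.18 and 0.286 in papillomas given vehicle, against 41.3, 49.3 and 58.8 in epidermis given CWO and 26.0, 47.3 and 39.7 in epidermis given vehicle. It stayed under 0.5 FPKM in 5 of the 6 papilloma libraries, and Cyp2f2 fell by 5.47 with CWO (adjusted p 1.12e-07) and fell by 4.54 with vehicle (adjusted p 2.27e-06). Cyp1a1 (chr9:57535735-57551631) had 0.419, 0.567 and 0.790 FPKM in papillomas given CWO and 1.65, 3.37 and 0.426 in papillomas given vehicle, against 66.1, 53.5 and 77.2 in epidermis given CWO and 54.5, 43.7 and 61.5 in epidermis given vehicle. No papilloma library reached 4 FPKM and no epidermis library was under 40, and Cyp1a1 fell by 5.38 with CWO (adjusted p 1.24e-07) and fell by 4.40 with vehicle (adjusted p 1.40e-05).

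Cyp1b1 (chr17:80106293-80114381) had 0.419, 0.723 and 0.587 FPKM in papillomas given CWO and 0.502, 1.33 and 0.573 in papillomas given vehicle, against 6.46, 4.52 and 6.05 in epidermis given CWO and 4.27, 4.26 and 5.01 in epidermis given vehicle. It lay below Cyp1a1 in every epidermis library, where Cyp1a1 averaged 11.8 times its level with vehicle, and it fell by 2.07 with CWO (adjusted p 6.71e-06) and fell by 1.64 with vehicle (adjusted p 8.32e-05). Cyp3a57, of the Cyp3a family, had 0.313, 0.345 and 0.461 FPKM in papillomas given CWO and 0.471, 1.16 and 0.260 in papillomas given vehicle, against 11.9, 10.8 and 10.2 in epidermis given CWO and 9.92, 6.71 and 9.76 in epidermis given vehicle. It fell by 3.12 with CWO (adjusted p 3.27e-07) and fell by 2.61 with vehicle (adjusted p 2.09e-05). Its relative Cyp3a13 moved the other way, with 10.6, 6.85 and 7.26 FPKM in papillomas given CWO and 8.36, 7.84 and 9.62 in papillomas given vehicle, against 3.18, 3.13 and 4.44 in epidermis given CWO and 5.25, 2.64 and 4.10 in epidermis given vehicle. It rose by 1.00 with CWO (adjusted p 0.00134) and rose by 0.97 with vehicle (adjusted p 0.00232), with no overlap between tissues. Cyp2s1 rose as well, with 39.9, 31.9 and 25.8 FPKM in papillomas given CWO and 30.4, 19.5 and 30.1 in papillomas given vehicle, against 14.5, 16.0 and 11.5 in epidermis given CWO and 9.72, 9.56 and 10.7 in epidermis given vehicle. Papilloma vehicle library 2 was the lowest of the papilloma libraries and still above every epidermis library, and Cyp2s1 rose by 1.15 with CWO (adjusted p 0.000483) and rose by 1.30 with vehicle (adjusted p 0.000204).

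Of the 3 expressed Cyp2b genes, 2 were called lower and Cyp2b10 was not called. Cyp2b10 (chr7:26682683-26711643) had 40.1, 38.9 and 49.2 FPKM in papillomas given CWO and 32.6, 54.4 and 43.2 in papillomas given vehicle, against 51.5, 44.8 and 48.2 in epidermis given CWO and 43.3, 46.8 and 45.7 in epidermis given vehicle. All 4 groups overlapped, and the log2 change was -0.17 with CWO (SE 0.117, adjusted p 0.213) and -0.09 with vehicle (SE 0.167, adjusted p 0.652). Cyp2b19 (chr7:27542206-27557649) had 30.1, 24.1 and 15.0 FPKM in papillomas given CWO and 20.8, 24.2 and 20.6 in papillomas given vehicle, against 27.3, 61.9 and 44.1 in epidermis given CWO and 99.9, 73.3 and 66.8 in epidermis given vehicle. With vehicle the tissues were apart, at a log2 change of -1.81 (adjusted p 1.77e-05). With CWO they overlapped, and the call at -0.89 (adjusted p 0.0336) was lost without epidermis CWO library 2 or 3 (0.0986 and 0.0869), without papilloma CWO library 2 or 3 (0.0612 and 0.107), with no filter (0.0732) and with median-ratio scaling (0.0667). Cyp2b23 (chr7:27450246-27471449), with the papilloma and epidermis values given above, fell by 2.86 with CWO (adjusted p 2.55e-06) and fell by 1.21 with vehicle (adjusted p 0.000278).

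**Figure D5:**
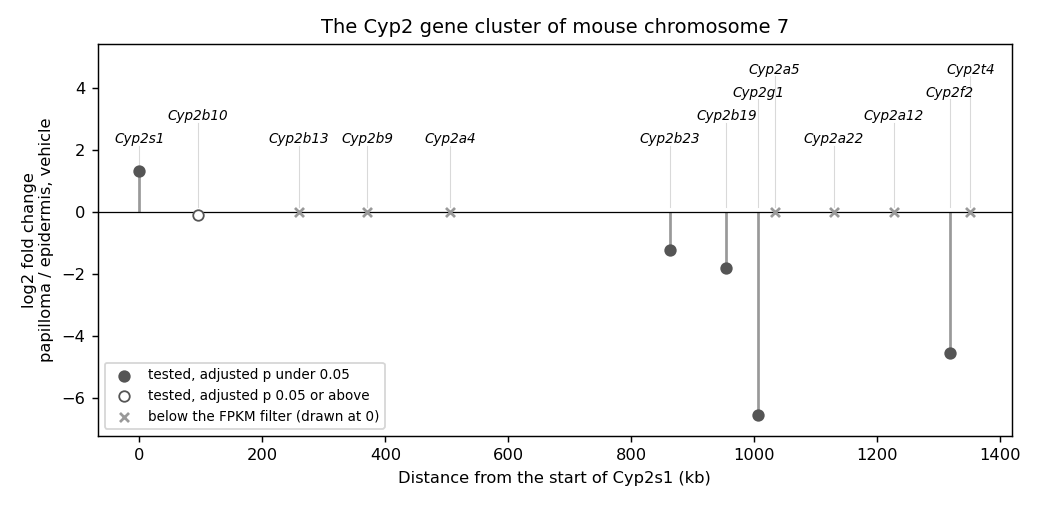
Log2 change between vehicle-treated papilloma and epidermis along the Cyp2 cluster of chromosome 7, against distance from the start of Cyp2s1 in kb, with filled points for calls, an open point for a gene tested and not called, and crosses for genes below the filter. Cyp2s1 at the left end is 1.30 higher, Cyp2b10 next to it is near 0, and Cyp2b23, Cyp2b19, Cyp2g1 and Cyp2f2 are 1.21 to 6.53 lower.

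Of the enzymes of fatty acids, the highest did not pass the test. Cyp4f39, the mouse relative of the human enzyme that makes the acylceramides of the skin barrier (chr17:32589668-32630265), had 87.2, 89.9 and 103 FPKM in papillomas given CWO and 92.1, 104 and 107 in papillomas given vehicle, against 122, 109 and 94.7 in epidermis given CWO and 91.5, 116 and 107 in epidermis given vehicle. All groups overlapped, and the log2 change was -0.21 with CWO (SE 0.120, adjusted p 0.151, or 0.0437 without epidermis CWO library 3) and -0.05 with vehicle (SE 0.113, adjusted p 0.726). With median-ratio scaling the vehicle values of Cyp4f39 and Cyp2b10 changed sign and stayed uncalled. The other 3 expressed genes of its chromosome 17 cluster of 7 (chr17:32589668-33084306) were called. Cyp4f17 had 13.7, 12.2 and 9.69 FPKM in papillomas given CWO and 11.4, 9.41 and 10.8 in papillomas given vehicle, against 3.46, 4.45 and 2.01 in epidermis given CWO and 4.98, 2.88 and 4.14 in epidermis given vehicle. Cyp4f16 had 9.66, 11.4 and 10.5 FPKM in papillomas given CWO and 11.3, 10.8 and 10.8 in papillomas given vehicle, against 5.38, 5.29 and 5.22 in epidermis given CWO and 3.99, 3.71 and 3.89 in epidermis given vehicle. Both were higher in every papilloma library: Cyp4f17 rose by 1.61 with CWO (adjusted p 0.000272) and rose by 1.23 with vehicle (adjusted p 0.000303), and Cyp4f16 rose by 0.87 with CWO (adjusted p 0.000144) and rose by 1.30 with vehicle (adjusted p 1.33e-05). For Cyp4f16, 26.0% of its 50-base words also occur in Cyp4f37, Cyp4f17 or Cyp4f14, so its reads may be shared. Cyp4f13, at the far end of the cluster, had 4.06, 3.36 and 3.65 FPKM in papillomas given CWO and 4.37, 4.01 and 3.68 in papillomas given vehicle, against 10.8, 11.9 and 8.04 in epidermis given CWO and 13.6, 11.2 and 12.1 in epidermis given vehicle. It fell by 1.25 with CWO (adjusted p 0.000134) and fell by 1.41 with vehicle (adjusted p 1.87e-05), without overlap.

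Cyp4f18, which in mouse neutrophils inactivates leukotriene B4, lies apart on chromosome 8 (chr8:74512381-74533525) and had 2.70, 0.994 and 1.28 FPKM in papillomas given CWO and 1.35, 2.86 and 1.30 in papillomas given vehicle, against 0.189, 0.0738 and 0.0753 in epidermis given CWO and 0.0485, 0 and 0.0274 in epidermis given vehicle. Epidermis gave 2 to 5 fragments per library with CWO and 0 to 1 with vehicle, so no ratio is given. It passed the filter with vehicle only, where it rose by 1.43 (adjusted p 0.000332). Cyp4v3, relative of the human gene of Bietti crystalline dystrophy, had 0.617, 0.785 and 0.679 FPKM in papillomas given CWO and 0.789, 0.738 and 0.847 in papillomas given vehicle, against 9.32, 8.54 and 17.0 in epidermis given CWO and 14.5, 17.2 and 15.5 in epidermis given vehicle. It fell by 2.84 with CWO (adjusted p 1.21e-05) and fell by 3.22 with vehicle (adjusted p 3.02e-07). Cyp4b1, a hydroxylase of fatty acids and foreign amines, had 1.27, 2.32 and 2.88 FPKM in papillomas given CWO and 2.47, 2.81 and 2.59 in papillomas given vehicle, against 11.4, 9.78 and 12.6 in epidermis given CWO and 15.2, 12.3 and 11.1 in epidermis given vehicle. It fell by 1.99 with CWO (adjusted p 4.55e-05) and fell by 1.93 with vehicle (adjusted p 7.00e-06), and no papilloma library reached 3 FPKM.

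The Cyp2j genes, epoxygenases of arachidonic acid, form a chromosome 4 cluster of 7 (chr4:95709351-96330810), and all 4 expressed members were called lower in papilloma with both treatments, where 39.7% of all genes with CWO and 38.3% with vehicle were. Cyp2j6, the highest, had 6.49, 6.36 and 4.64 FPKM in papillomas given CWO and 6.13, 6.15 and 6.53 in papillomas given vehicle, against 23.3, 21.1 and 31.7 in epidermis given CWO and 23.8, 27.5 and 28.3 in epidermis given vehicle. It fell by 1.94 with CWO (adjusted p 2.44e-05) and fell by 1.92 with vehicle (adjusted p 2.00e-06). The others stayed at or below 1.22 FPKM in every papilloma library. Cyp2j12 had 0.0553, 0.171 and 0.30 FPKM in papillomas given CWO and 0.450, 1.04 and 0.207 in papillomas given vehicle, against 9.52, 9.21 and 8.16 in epidermis given CWO and 8.76, 7.90 and 9.60 in epidermis given vehicle. Cyp2j8 had 0.183, 0.317 and 0.0441 FPKM in papillomas given CWO and 0.397, 0.919 and 0.391 in papillomas given vehicle, against 8.56, 6.14 and 8.87 in epidermis given CWO and 5.63, 7.06 and 7.87 in epidermis given vehicle. Cyp2j9 had 0.498, 0.889 and 0.566 FPKM in papillomas given CWO and 0.30, 1.22 and 0.768 in papillomas given vehicle, against 7.53, 8.16 and 10.1 in epidermis given CWO and 8.30, 7.12 and 7.69 in epidermis given vehicle. No tissue ranges overlapped, and vehicle library 2 was the highest papilloma library for these 3 genes. Cyp2j12 fell by 3.09 with CWO (adjusted p 4.68e-07) and fell by 2.67 with vehicle (adjusted p 8.72e-06), Cyp2j8 fell by 2.90 with CWO (adjusted p 1.77e-06) and fell by 2.33 with vehicle (adjusted p 9.98e-06), and Cyp2j9 fell by 2.54 with CWO (adjusted p 2.28e-06) and fell by 2.34 with vehicle (adjusted p 1.66e-05).

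The enzymes of cholesterol and steroids were called in both directions. Cyp11a1, which cuts the side chain of cholesterol at the start of steroid hormone synthesis (chr9:57862824-57874830), had 5.00, 3.53 and 3.21 FPKM in papillomas given CWO and 3.82, 3.50 and 4.48 in papillomas given vehicle, against 0, 0 and 0.144 in epidermis given CWO and 0.0463, 0 and 0.131 in epidermis given vehicle. Every papilloma library was above 3 FPKM, on 87 to 163 fragments with CWO and 92 to 137 with vehicle, while epidermis gave 0 to 4 and 0 to 5 fragments. Cyp11a1 rose by 2.21 with CWO (adjusted p 5.77e-06) and rose by 2.22 with vehicle (adjusted p 2.59e-06). Cyp7b1, an oxysterol hydroxylase (chr3:17971950-18143338), had 9.20, 8.76 and 6.40 FPKM in papillomas given CWO and 7.94, 8.67 and 6.80 in papillomas given vehicle, against 0.288, 0.253 and 0.172 in epidermis given CWO and 0.296, 0.139 and 0.0836 in epidermis given vehicle. It rose by 2.87 with CWO (adjusted p 1.17e-06) and rose by 2.91 with vehicle (adjusted p 9.93e-07), the largest rises among the P450 genes tested. The lowest papilloma library had 6.40 FPKM and the highest of epidermis 0.296 FPKM, on 3 to 10 fragments per epidermis library. Cyp11a1 and Cyp7b1 passed the filter through papilloma only, so both had to differ between the tissues.

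Cyp17a1, which acts after Cyp11a1, went the other way, with 2.41, 1.89 and 1.81 FPKM in papillomas given CWO and 2.31, 3.66 and 3.11 in papillomas given vehicle, against 10.0, 11.3 and 9.40 in epidermis given CWO and 6.30, 4.89 and 7.22 in epidermis given vehicle. It fell by 1.89 with CWO (adjusted p 5.11e-06) and fell by 0.83 with vehicle (adjusted p 0.00307), and the highest papilloma library was below the lowest of epidermis. Cyp27a1, the mitochondrial sterol hydroxylase, had 1.43, 1.41 and 1.51 FPKM in papillomas given CWO and 1.74, 3.05 and 1.49 in papillomas given vehicle, against 12.3, 13.1 and 11.1 in epidermis given CWO and 17.9, 11.7 and 12.1 in epidermis given vehicle. It fell by 2.42 with CWO (adjusted p 7.37e-07) and fell by 2.28 with vehicle (adjusted p 4.02e-05). Cyp39a1, an oxysterol hydroxylase of the route to bile acids, had 0.962, 1.40 and 1.06 FPKM in papillomas given CWO and 1.23, 1.54 and 1.30 in papillomas given vehicle, against 8.70, 6.51 and 9.18 in epidermis given CWO and 8.04, 8.01 and 9.68 in epidermis given vehicle. It fell by 2.09 with CWO (adjusted p 7.38e-06) and fell by 2.02 with vehicle (adjusted p 3.81e-06). Cyp8b1, the sterol hydroxylase of cholic acid synthesis, had 1.21, 0.784 and 1.06 FPKM in papillomas given CWO and 0.747, 1.36 and 1.47 in papillomas given vehicle, against 0.388, 0.316 and 0.290 in epidermis given CWO and 0.416, 0.313 and 0.211 in epidermis given vehicle. The lowest papilloma library was above the highest of epidermis, but the gene passed neither tissue filter and was not tested there.

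Retinoic acid and vitamin D enzymes were lower in papilloma where they were expressed. Cyp26b1, which breaks down retinoic acid (chr6:84521408-84543902), had 6.32, 7.65 and 6.80 FPKM in papillomas given CWO and 7.30, 8.39 and 8.17 in papillomas given vehicle, against 18.1, 22.9 and 25.8 in epidermis given CWO and 21.0, 26.8 and 21.6 in epidermis given vehicle. It fell by 1.55 with CWO (adjusted p 2.87e-05) and fell by 1.43 with vehicle (adjusted p 1.95e-05), without overlap. Its relatives Cyp26a1 and Cyp26c1 stayed under 0.3 FPKM in every library. Cyp2r1, a vitamin D hydroxylase of liver, had 0.441, 0.126 and 0.204 FPKM in papillomas given CWO and 0.184, 0.425 and 0.434 in papillomas given vehicle, against 1.35, 1.40 and 1.47 in epidermis given CWO and 1.07, 1.09 and 1.27 in epidermis given vehicle. It fell by 0.95 with CWO (adjusted p 0.000197) and fell by 0.67 with vehicle (adjusted p 0.00176). Cyp27b1 stayed below the threshold for expression, with 0.325, 0.134 and 0.261 FPKM in papillomas given CWO and 0.206, 0.703 and 0.347 in papillomas given vehicle, against 0.662, 1.79 and 0.736 in epidermis given CWO and 0.818, 0.739 and 0.684 in epidermis given vehicle, and Cyp24a1, which degrades active vitamin D, did not exceed 0.0423 FPKM.

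Other P450 genes called between the tissues were Cyp2w1, Cyp20a1 and Cyp2e1. Cyp2w1 had 0.516, 0.683 and 0.576 FPKM in papillomas given CWO and 0.699, 0.539 and 0.550 in papillomas given vehicle, against 5.71, 7.87 and 3.79 in epidermis given CWO and 6.50, 5.99 and 7.70 in epidermis given vehicle. It fell by 2.05 with CWO (adjusted p 4.52e-05) and fell by 2.27 with vehicle (adjusted p 2.42e-06). Cyp20a1, an orphan with no assigned substrate, had 5.76, 6.89 and 5.90 FPKM in papillomas given CWO and 6.85, 6.06 and 4.24 in papillomas given vehicle, against 2.40, 2.86 and 1.78 in epidermis given CWO and 3.03, 3.44 and 2.60 in epidermis given vehicle. It rose by 1.11 with CWO (adjusted p 0.000216) and rose by 0.72 with vehicle (adjusted p 0.00555). Cyp2e1, which oxidises ethanol and other small molecules, had 0, 0 and 0.154 FPKM in papillomas given CWO and 0.170, 0.164 and 0.0335 in papillomas given vehicle, against 3.31, 1.12 and 1.47 in epidermis given CWO and 7.21, 0.595 and 0.349 in epidermis given vehicle. Within epidermis its highest library was 20.7 times its lowest, and it passed the filter with CWO only, where it fell by 1.43 (adjusted p 0.000881). The 5 adipocyte markers summed to 0.227, 0.476 and 2.14 FPKM in papillomas given CWO and 0.628, 3.79 and 0.887 in papillomas given vehicle, against 30.3, 25.1 and 16.5 in epidermis given CWO and 49.6, 11.8 and 3.80 in epidermis given vehicle. The epidermis library with the most Cyp2e1 was also the one with the most adipocyte transcripts. Their part in the Cyp2e1 values was not tested. Cyp2a5, a coumarin hydroxylase, had 0.0717, 0 and 0.120 FPKM in papillomas given CWO and 0, 0.10 and 0.106 in papillomas given vehicle, against 0.674, 1.72 and 2.24 in epidermis given CWO and 0.577, 1.81 and 1.37 in epidermis given vehicle and was not tested between tissues, and 38.6% of its 50-base words also occur in Cyp2a4 or a pseudogene. Cyp2d22, of the Cyp2d family, had 0.414, 0.511 and 0.475 FPKM in papillomas given CWO and 0.383, 0.648 and 0.562 in papillomas given vehicle, against 0.992, 1.12 and 0.769 in epidermis given CWO and 1.64, 1.10 and 0.928 in epidermis given vehicle and was not tested there either.

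Markers of other cells differed between the tissues beside these genes. Sebaceous gland markers summed to 127 to 200.2 FPKM in papillomas given CWO and 132 to 393 FPKM in papillomas given vehicle, against 3024 to 3469 FPKM in epidermis given CWO and 2430 to 2725 FPKM in epidermis given vehicle, and all 10 of 10 tested were called lower in papilloma with both treatments, or 9 of 10 with vehicle when epidermis libraries 1 and 2 were left out. Fibroblast markers summed to 335 to 558 FPKM in papillomas and 11.8 to 68.7 FPKM in epidermis. Papilloma vehicle library 2 had the highest sums of the papillomas for sebaceous (393 FPKM), skeletal muscle (307 FPKM), hair follicle (561 FPKM) and adipocyte (3.79 FPKM) markers. It was also the highest papilloma library for 13 of the 20 P450 genes called lower with vehicle (65.0%), against 38.8% of all 4903 genes called lower. These 13 were Cyp2g1, Cyp2f2, Cyp1a1, Cyp1b1, Cyp2j8, Cyp2j9, Cyp2j12, Cyp26b1, Cyp27a1, Cyp39a1, Cyp3a57, Cyp2b23 and Cyp17a1. The part of these cells in the P450 values was not tested.

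No listed partner of the P450 enzymes passed the test with CWO. In epidermis 0 of 10 electron donors, 0 of 14 receptors and cofactors and 0 of 13 hydrolases and conjugating enzymes passed limma or reached an unadjusted p under 0.05. In papilloma 0 of 10, 0 of 11 and 0 of 13 passed, with 1 conjugating or hydrolysing gene at an unadjusted p under 0.05. Between the tissues, 0 electron donors were higher and 6 lower of 10 with CWO, and 1 higher and 6 lower of 10 with vehicle. In either direction these counts lie near the shares of all genes called, 68.8% with CWO and 70.2% with vehicle. In the lower direction 60% of donors were called with each treatment, against 39.7% of all genes with CWO and 38.3% with vehicle. Por, the electron donor of microsomal P450 enzymes, averaged 81.5 ± 3.84 FPKM in vehicle papillomas and 60.1 ± 9.60 FPKM in vehicle epidermis, a rise of 0.44 (adjusted p 0.0103, or 0.00991 without vehicle epidermis libraries 1 and 2). With CWO its change of 0.24 did not pass (adjusted p 0.229). Receptors and cofactors numbered 2 higher and 9 lower of 13 with CWO, and 2 higher and 10 lower of 14 with vehicle, where 39.7% and 38.3% of all genes were called lower. Ahr fell beside its target Cyp1a1, at 7.64 ± 0.251 FPKM in CWO papillomas against 19.9 ± 3.85 FPKM in CWO epidermis, and 7.86 ± 1.21 FPKM in vehicle papillomas against 18.8 ± 3.23 FPKM in vehicle epidermis (adjusted p 9.27e-05 and 0.000208). Tiparp, another target of the same receptor, rose by 2.23 with CWO and 2.27 with vehicle (adjusted p 1.88e-06 and 1.65e-05). Ahrr, of the same list, went the other way at low levels. It averaged 0.439 FPKM in CWO papillomas against 1.24 FPKM in CWO epidermis, and 0.290 against 1.31 FPKM with vehicle. The part of the receptor in these values was not tested. Hydrolases and conjugating enzymes numbered 2 higher and 7 lower of 14 with each treatment. Their called share of 64.3% lies below that of all genes, while the 50% called lower lies above the 39.7% and 38.3% of all genes. Among them Sult5a1, a sulfotransferase, had log2 changes of -4.34 with CWO and -4.40 with vehicle (limma adjusted p 2.93e-06 and 4.22e-06). Without vehicle epidermis libraries 1 and 2, the vehicle counts were 1 higher and 6 lower donors, 2 higher and 10 lower receptors and cofactors, and 2 higher and 6 lower hydrolases and conjugating enzymes. Cyp51, the P450 of cholesterol synthesis outside the symbol rule, averaged 116 ± 4.02 FPKM in epidermis given CWO and 69.2 ± 9.90 FPKM in epidermis given vehicle, a rise of 0.74 (adjusted p 0.0244) whose call was lost without vehicle libraries 1 and 2 (adjusted p 0.269).

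Of the 35 trace genes, 19 never reached 0.1 FPKM and 6 exceeded 0.3 FPKM in some library. The highest was Cyp27b1 at 1.79 FPKM in epidermis given CWO, followed by Cyp46a1 at 0.796 and Cyp2c44 at 0.417 FPKM. Cyp1a2, the liver relative of Cyp1a1, stayed between 0.202 and 0.369 FPKM in epidermis and under 0.1 FPKM in papilloma. Cyp27b1 gave 18 to 72 fragments per epidermis library and 5 to 31 per papilloma library, and was left out of the tests by the 1 FPKM filter. Trace genes with only a few fragments were not measured well enough for a comparison at this depth. A listing at 0 does not show absence.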

How the data were processed

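PolyA RNA of 12 libraries had been sequenced. Per the submitters' processing notes, bcl2fastq 1.8.4, TopHat2 2.0.4 and Cufflinks 2.0.2 were used with build mm9, and DESeq is named too. Read length and strandedness are not given in the sources used here. The authors deposited FPKM per gene for each library, with an interval from which fragments were recovered: 67.9% to 69.2% of small recovered counts came out whole within 0.02. The deposited comparison tables hold mean normalised counts (a signal per group), a fold ratio, its log2 and p-values, and were used only where named. The deposited papilloma table lists infinite ratios where a group is at 0.

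FPKM values were tested as log2(FPKM + 1) with limma 3.58.1 in R 4.3.3, two-sided, with Benjamini-Hochberg adjustment over all genes of a comparison and a threshold of 0.05. A gene entered where at least 3 libraries of the comparison reached 1 FPKM and each group had at least 2 values of good status, and small RNA genes were excluded. Each of 4 comparisons of 2 groups used its 6 libraries, and the difference between the CWO changes used all 12. Libraries were grouped by their labels. Genes called in any of the 5 comparisons or with a group mean of at least 5 FPKM are given with all 12 values. The members and the gene and marker lists were chosen with earlier results of these data known. Pseudocounts, filters, scaling, a replicate block, a fit of all 12 libraries, limma-voom on recovered fragments and leaving out libraries were tried as alternatives. The fits were tested on simulated data. Intervals of counting error were not used, and depth was 11.1 to 24.6 M fragments.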

Additional observations from a re-analysis of the deposited data

Results flagged for a closer look

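For Cyp2b23 the CWO change in papilloma minus that in epidermis passed the test, at -1.64 on the log2 scale with a limma adjusted p of 0.0121 over 13184 genes. The adjusted p was 0.175 by limma-voom and 0.0536 with a replicate block. All 6 papilloma libraries lay at or under 0.281 FPKM on 1 to 10.1 fragments, where the log2(FPKM + 1) scale holds any change near 0, and the gene passed the filter through epidermis only. The value therefore largely restates the epidermis change, where 3 of 3 CWO libraries were higher, and does not show a different response in papilloma.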

How the results depend on the processing

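The count of P450 genes called with CWO in epidermis, 1, was 0 with no filter on low values, 0 with a replicate block, 0 without vehicle libraries 1 and 2 (an alternative chosen after seeing the data), 3 in a fit of all 12 libraries, and 0 to 2 when 1 library was left out. The count for the difference between the CWO changes, also 1, was 2 with a pseudocount of 3, 0 with the replicate block, 0 by limma-voom and 1 to 2 when 1 library was left out. The count in papilloma was 0 in every setting tried. Between the tissues, counts of 28 ran from 27 to 40 with CWO and from 28 to 36 with vehicle over all settings, the highest with no filter on low values. The share of all genes called in each setting is not given beside these counts. They therefore do not show a change particular to the P450 genes. Of 138 results of single genes, 130 kept their call in every setting and 0 reversed. Deviations of same-numbered libraries from their group means had correlations from -0.444 to 0.0288 for treatment in epidermis and 0.0221 to 0.279 in papilloma. They were -0.227 to 0.0665 between CWO-treated tissues and -0.019 to 0.245 between vehicle-treated tissues. Libraries of different numbers reached 0.442, 0.28, 0.299 and 0.14 in the same order. The labels do not say what the numbers mean, so whether they pair the samples stays unknown. With the replicate block the adjusted p of Cyp2b23 was 0.0538 in epidermis and 0.0536 for the difference, and 28 P450 genes were called between the tissues with each treatment. The causes were not tested. Depth limits genes near 0.1 FPKM, where 3 fragments lie, and pooled tumours, 3 libraries a group and the tissue design limit the rest.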
